A study of Homo sapiens with 27 samples.

Results

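The MCM helicase and replication licensing genes are 10 of the 14008 genes in the count table: MCM2, MCM3, MCM4, MCM5, MCM6, MCM7, CDC6, CDT1, GMNN and GINS2. They were chosen by name, as genes of the replicative helicase and its loading, by a rule that uses no measured value, though with earlier results of these data known. All 10 were found in the table and all 10 passed the filter on low counts in every comparison.

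Before a cell copies its DNA, origins are licensed: the origin recognition complex, CDC6 and CDT1 load the ring of MCM2 to MCM7 onto DNA as an inactive double helicase. Geminin, the product of GMNN, binds CDT1 and blocks further loading, and the GINS complex joins MCM2 to MCM7 and CDC45 to turn the loaded ring into the moving helicase. Most of these genes are transcribed by E2F factors at the entry into S phase, and resting endothelial cells keep them low.

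The libraries measured the 3' ends of messenger RNA in teloHAEC, a human aortic endothelial line immortalised with telomerase, 2 days after electroporation of Cas9 protein and guide RNA into 150000 cells per replicate. All 6 groups received high-fidelity Cas9. In set A, guides flanked a candidate enhancer of SMAD3 (SMAD3 deletion, n = 4), or 1 guide cut HPRT1 (HPRT-targeted, n = 4), or the guide had no target (negative control, n = 4). In set B, guides flanked a candidate enhancer of LDAH (LDAH deletion, n = 4), and the HPRT-targeted (n = 4) and negative control (n = 7) groups were repeated. The HPRT guide is a positive control for editing, and like the deletion guides it cleaves the genome. No cloning step is named in the labels, so a library may mix RNA of edited and unedited cells, and the edited share is not part of the table. Nothing in the labels says that replicates of a group came from separate cultures, so p-values measure the spread between these libraries, which may be technical.

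Total counts ranged from 3.43 to 7.75 M per library, and the 10 genes together took 0.0377% to 0.0817% of them. All 12 endothelial markers were in the table, with a summed level of 1147 to 2282 CPM, which are counts scaled to a common library size. The endothelial adhesion gene PECAM1 averaged 354 CPM and the cadherin gene CDH5 211 CPM, while VWF averaged 2.83 CPM. Of the markers of other cell types, 2 of 9 for fibroblasts or smooth muscle, 0 of 4 for epithelium and 1 of 6 for blood were present, with ACTA2 the most abundant at 33.1 CPM. SMAD3 stood at 94.6 ± 15.1 CPM in SMAD3 deletion and 128 ± 9.21 CPM in negative control libraries (SD, n = 4 each; edgeR log2 fold change -0.44, adjusted p = 0.702). LDAH stood at 7.31 ± 3.44 CPM in LDAH deletion (n = 4) and 12.5 ± 3.603 CPM in negative control libraries (n = 7; edgeR log2 fold change -0.76, adjusted p = 1). The log2 fold change of HPRT1 was -0.33 (set A) and -0.23 (set B), neither of which passed the test. The cut site and the deleted intervals are not given in the labels, and 3' tags outside them do not check the editing. Across genes, 7 libraries correlated less than the others with their set (median correlation 0.924 to 0.960 against 0.977 to 0.981 in set A, and 0.858 to 0.879 against 0.928 to 0.953 in set B). They were HPRT-targeted replicate 3 and SMAD3 deletion replicate 4 of set A, and of set B LDAH deletion replicate 4, HPRT-targeted replicates 2 and 4 and negative control replicates 6 and 7. These are called libraries that stand apart, and results are given with and without them.

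The helicase genes lie on 6 chromosomes, in coordinates of GRCh38. MCM2 (ENSG00000073111; chromosome 3, 127598223 to 127622436, plus strand) encodes the subunit whose tail also binds histones. MCM3 (ENSG00000112118; chromosome 6, 52264009 to 52284881, minus strand) and MCM5 (ENSG00000100297; chromosome 22, 35400063 to 35425430, plus strand) encode neighbouring subunits of the ring. MCM4 (ENSG00000104738; chromosome 8, 47960185 to 47978160, plus strand), MCM6 (ENSG00000076003; chromosome 2, 135839626 to 135876426, minus strand) and MCM7 (ENSG00000166508; chromosome 7, 100092728 to 100101940, minus strand) encode the subunits of its catalytic core. MCM7 also hosts the microRNA genes MIR25, MIR93 and MIR106B in its introns.

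The loaders are CDC6 (ENSG00000094804; chromosome 17, 40287633 to 40304657, plus strand) and CDT1 (ENSG00000167513; chromosome 16, 88803213 to 88809258, plus strand). The inhibitor is GMNN (ENSG00000112312; chromosome 6, 24774931 to 24786099, plus strand), and GINS2 (ENSG00000131153; chromosome 16, 85676198 to 85690073, minus strand) encodes a subunit of the activating complex. The last 1000 bases of GINS2, where 3' tags fall, overlap GSE1 on the opposite strand, and those of MCM2 overlap an antisense transcript, AC023593.1. Whether the counting used the strand is not given in the sources used here, so the values of GINS2 and MCM2 carry that uncertainty.

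Promoters are shown for 4 genes on which the results turn, MCM6 and MCM2 for HPRT targeting, MCM7 for SMAD3 deletion and CDT1 as the gene that varied most within groups of set B. Only promoter entries with a match of the E2F motif are shown, so all 4 hold it by choice. All 4 also hold the GC box. The other entries of MCM7, not shown, hold no match of the E2F motif. Sequences come from RefSeq (GRCh38.p14), run 5' to 3' on the gene's strand from 250 bases before to 30 after the start, and have the E2F motif in capitals. They span chr2:135876414-135876693 (minus strand) for MCM6, chr3:127598161-127598440 (plus strand) for MCM2, chr7:100101368-100101647 (minus strand) for MCM7 and chr16:88803539-88803818 (plus strand) for CDT1.
MCM6: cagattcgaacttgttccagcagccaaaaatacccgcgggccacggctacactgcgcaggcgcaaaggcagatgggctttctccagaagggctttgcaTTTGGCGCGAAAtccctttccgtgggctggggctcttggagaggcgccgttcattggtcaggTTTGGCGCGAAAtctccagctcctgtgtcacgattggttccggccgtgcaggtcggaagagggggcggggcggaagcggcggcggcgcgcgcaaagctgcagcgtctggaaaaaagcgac
MCM2: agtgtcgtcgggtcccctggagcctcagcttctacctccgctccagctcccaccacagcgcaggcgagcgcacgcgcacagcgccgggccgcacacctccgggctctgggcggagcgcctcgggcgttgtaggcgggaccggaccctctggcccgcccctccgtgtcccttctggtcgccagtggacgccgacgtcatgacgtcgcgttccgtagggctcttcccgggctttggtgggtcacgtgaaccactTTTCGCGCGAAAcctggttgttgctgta
MCM7: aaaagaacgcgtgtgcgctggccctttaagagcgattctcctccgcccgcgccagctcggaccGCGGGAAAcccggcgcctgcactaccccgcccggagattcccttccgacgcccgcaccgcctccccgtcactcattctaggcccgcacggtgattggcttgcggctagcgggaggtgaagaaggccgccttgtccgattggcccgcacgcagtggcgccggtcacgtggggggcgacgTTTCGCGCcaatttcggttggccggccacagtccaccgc
CDT1: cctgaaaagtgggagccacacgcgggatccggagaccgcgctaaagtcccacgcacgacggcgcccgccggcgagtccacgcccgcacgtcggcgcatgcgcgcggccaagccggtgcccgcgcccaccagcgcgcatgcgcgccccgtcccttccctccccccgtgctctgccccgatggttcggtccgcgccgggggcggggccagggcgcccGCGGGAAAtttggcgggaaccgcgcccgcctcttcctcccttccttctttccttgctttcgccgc

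Promoter entries of 300 bases were searched for 8 of the 10 genes. Entries on chromosome 8, where MCM4 lies, were left out for the 10 genes but kept for all genes. Whether MCM4 holds the motifs was therefore not examined, and no entry was found for MCM5. The E2F motif was searched as TTTCCCGC, TTTGGCGC, TTTCGCGC and TTTGCCGC on both strands. It occurred in at least 1 promoter of all 8 genes, and in 3.99% of the 27305 genes with an entry. Counted by promoter, 8 of 11 held it, against 3.31% of 35116. In MCM6 a match began at -152 and another at -90 from the start, each overlapped by a match of the other strand. The match of MCM2 began 3 bases after the start, that of CDT1 at -35, and those of MCM7 at -187 and -9. Other promoter motifs separated the genes less from the rest: CCAAT, the box bound by NF-Y, occurred in 6 of 8 genes and 39.7% of all genes, and the GC box GGGCGG in 6 of 8 and 48.3%. The cell cycle homology region (TTTGAA or TTCGAA), a motif of genes of later phases, occurred in 1 of 8 genes and 19.5% of all. A match is a description of letters and shows neither binding nor a cause.

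**Figure D1:**
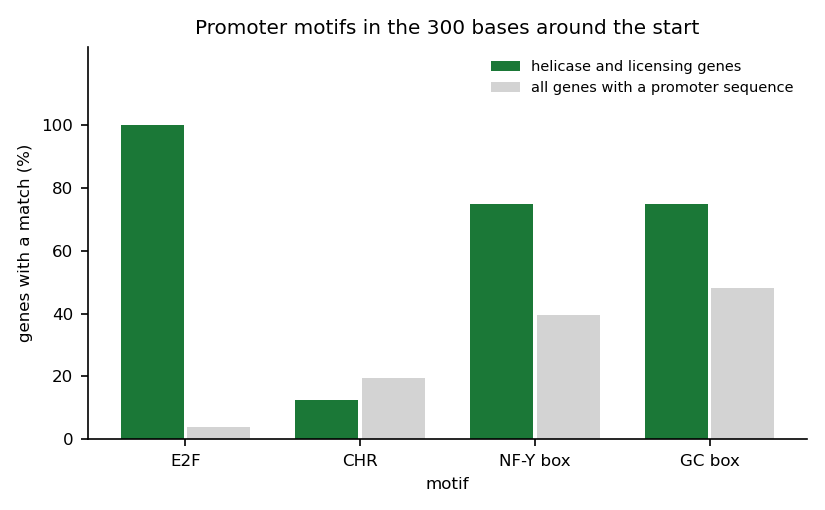
Share of genes (%) with at least 1 match of each motif in the 300 bases around the start, for the 8 helicase and licensing genes searched (green) and for all 27305 genes with an entry (grey). MCM4 was not searched. The E2F motif reaches all 8 genes against 3.99% of all genes, while the cell cycle homology region (CHR) is in 1 of 8.

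Levels are given in CPM after scaling by trimmed means (TMM) within a set. QuantSeq gives about 1 tag per transcript, so levels of different genes compare without a correction for length, apart from differences in how well each 3' end is captured. In negative control libraries of set A the order ran from MCM4 (114 ± 5.44 CPM) and MCM7 (113 ± 13.9) through MCM3 (88.0 ± 3.98), MCM5 (67.7 ± 4.34), MCM2 (55.2 ± 8.91) and GMNN (51.4 ± 5.32) to CDC6 (35.4 ± 2.68), MCM6 (33.4 ± 1.502), GINS2 (29.4 ± 5.03) and CDT1 (14.9 ± 1.04), each as mean ± SD over n = 4. MCM4 and MCM7 overlapped, as did MCM5 and MCM2, MCM2 and GMNN, CDC6 and MCM6, and MCM6 and GINS2. The ranges of MCM7 and MCM3, MCM3 and MCM5, GMNN and CDC6, and GINS2 and CDT1 did not overlap. The 6 subunits enter the ring in equal numbers, yet their tags spanned from 33.4 CPM for MCM6 to 114 CPM for MCM4.

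In negative control libraries of set B the highest were again MCM4 (140.5 ± 50.6 CPM), MCM7 (114 ± 14.6) and MCM3 (93.8 ± 21.0), followed by GMNN (81.3 ± 12.04), and the lowest were GINS2 (24.2 ± 6.48) and CDT1 (23.5 ± 11.2), over n = 7. Here every gene overlapped the next in the order. Counts of the 10 genes per library lay between 39 and 1269, far above the 3 counts that mark the detection floor (0.387 to 0.875 CPM).

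**Figure D2:**
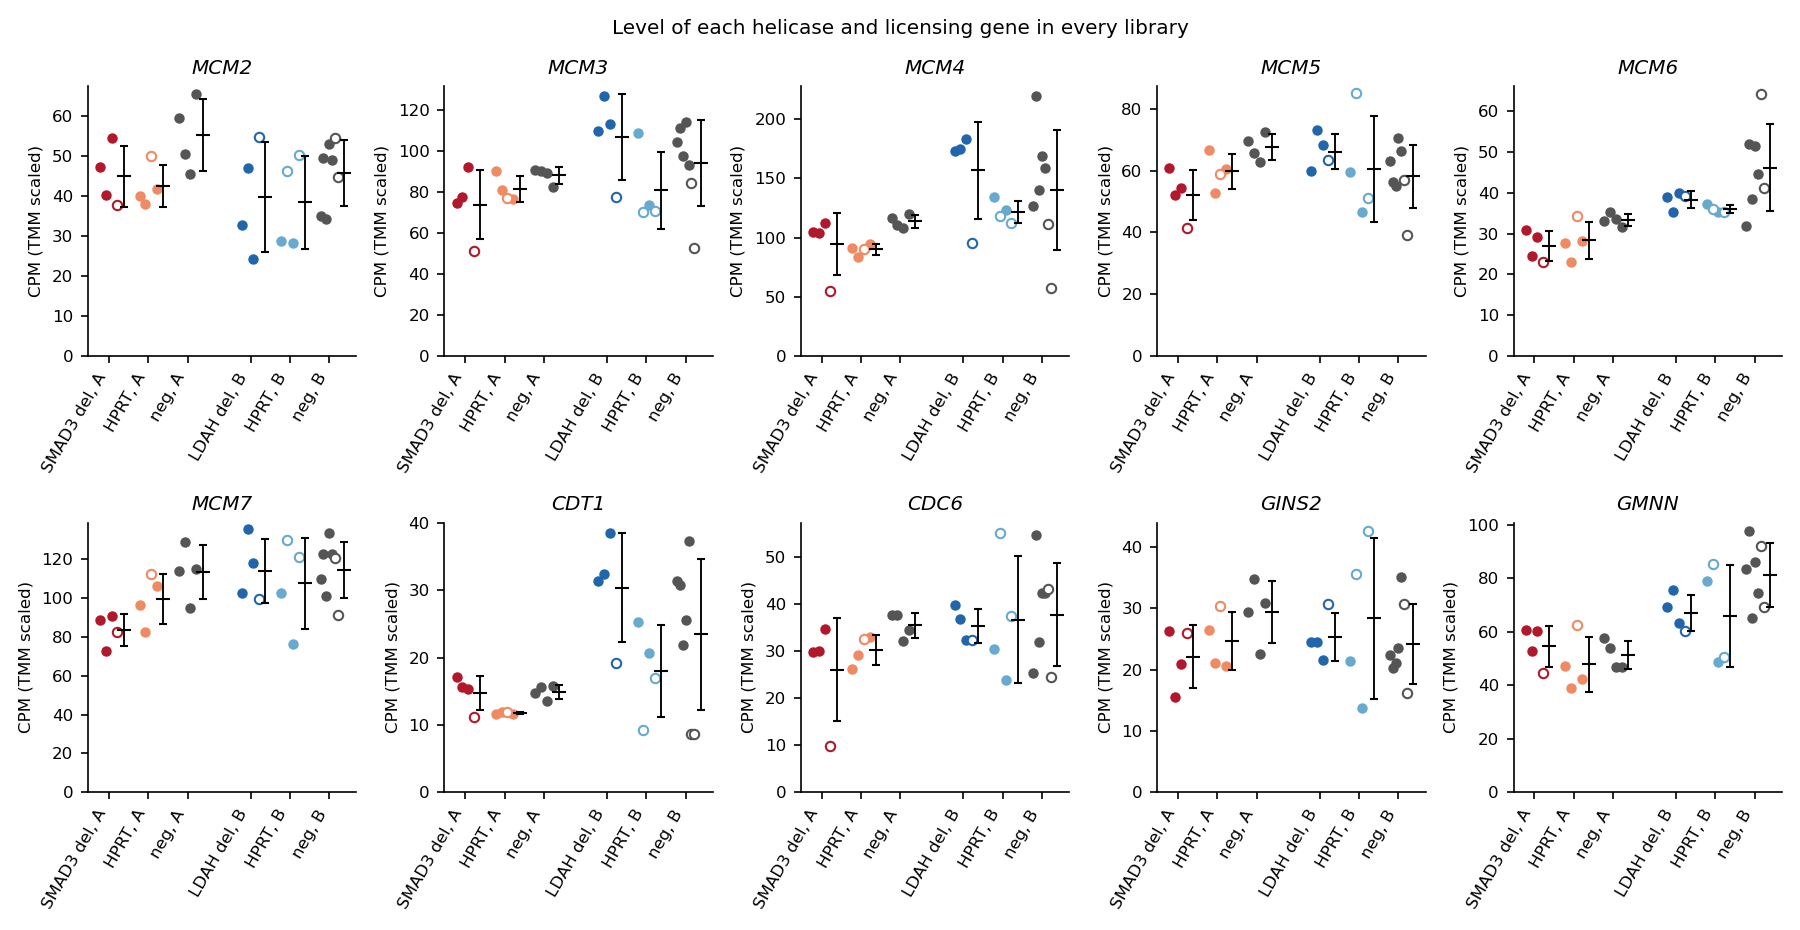
Level of each gene (CPM, linear axis from 0) in all 27 libraries, by group. Points are libraries, open points are the 7 libraries that stand apart, and bars are mean ± SD. CDT1 lies between 11.2 and 17.1 CPM in set A and between 8.62 and 38.6 CPM in set B, and GMNN is higher in every negative control library of set B than in any of set A.

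HPRT targeting asks what a cutting guide does to these genes when no enhancer is removed, although the guide, the cut and any loss of HPRT1 cannot be told apart. All 10 genes were at lower mean levels after HPRT targeting in set A, and 0 of 10 passed the test. MCM2 had 39.9, 38.0, 49.9 and 41.7 CPM in HPRT-targeted libraries, against 59.5, 50.5, 45.5 and 65.4 CPM in negative controls. Of the 4 HPRT-targeted libraries, 3 lay below the lowest control, and replicate 3, which stands apart, lay within the control range. The log2 fold change of MCM2 was -0.38 ± 0.15 (SE), with an unadjusted p of 0.0254 and an adjusted p of 0.988 (edgeR quasi-likelihood test, Benjamini-Hochberg). In RNA from whole cultures, fewer cells that transcribe a gene and less RNA per cell cannot be told apart.

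MCM4, of the catalytic core, had 90.8, 83.4, 90.6 and 94.8 CPM in HPRT-targeted libraries of set A, against 116, 111, 108 and 119.9 CPM in negative controls. The 4 HPRT-targeted values all lay below the 4 controls, with a log2 fold change of -0.34 ± 0.17 (edgeR adjusted p = 0.988). CDT1, the loader that geminin blocks, had 11.7, 11.98, 11.9 and 11.6 CPM in HPRT-targeted libraries, against 14.7, 15.6, 13.5 and 15.8 CPM in negative controls, again with no overlap. Its log2 fold change was -0.34 ± 0.15, with an edgeR unadjusted p of 0.0432 and an adjusted p of 0.988. These 2 of 10 genes had every HPRT-targeted library below every control, as had 2.1% of all 11467 genes tested.

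The remaining log2 fold changes in set A ran from -0.10 for GMNN to -0.25 for GINS2, with MCM6 at -0.24, CDC6 at -0.23, MCM7 at -0.19, MCM5 at -0.18 and MCM3 at -0.12. The median over the 10 genes was -0.24, and over all genes it was -0.00. At an unadjusted p under 0.05, 2 of 10 genes were lower, against 1.12% of all genes, and at an adjusted p of 0.05 or less 0 of 10 were called, against 0% of all genes. Without the 7 libraries all 10 were still lower, with a median of -0.30, and 7 of 10 had an unadjusted p under 0.05, against 3.02% of all genes. In that comparison MCM4 had a log2 fold change of -0.34 ± 0.09 (edgeR adjusted p = 0.748), MCM2 had -0.47 ± 0.13 (0.748), and 0 of 10 were called, against 0.00864% of all genes.

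In set B the same guide gave lower means in HPRT-targeted libraries for 8 of 10 genes, with wider errors. MCM6 had 37.2, 36.2, 35.2 and 35.2 CPM in HPRT-targeted libraries, and a lowest, median and highest value of 31.8, 44.6 and 64.2 CPM in the 7 negative controls. The HPRT-targeted values lay close together in the lower part of the control range, which they overlapped. Its log2 fold change was -0.36 ± 0.18 (edgeR unadjusted p = 0.0647, adjusted p = 0.999).

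MCM2 split the HPRT-targeted libraries of set B, with 28.7 and 28.2 CPM in replicates 1 and 3 and 46.2 and 50.2 CPM in replicates 2 and 4, which stand apart. The negative controls had 34.3, 48.9 and 54.5 CPM as lowest, median and highest, so the first pair lay below all 7 controls and the second pair inside their range. GMNN had 79.1, 85.4, 48.8 and 50.7 CPM in HPRT-targeted libraries, against 65.3, 83.4 and 97.9 CPM as lowest, median and highest in the controls, and its log2 fold change was -0.30 ± 0.19 (edgeR adjusted p = 0.999). Replicates 3 and 4 lay below all 7 controls and replicates 1 and 2 among them. GINS2 had 21.5, 35.6, 13.8 and 42.5 CPM in HPRT-targeted libraries, against 16.1, 22.4 and 35.0 CPM as lowest, median and highest in the controls, with the libraries that stand apart at the high end of the HPRT-targeted group. Its log2 fold change, at 0.23 ± 0.28, and that of MCM5, at 0.06 ± 0.19, were the 2 positive values, and both became negative without the 7 libraries, at -0.49 ± 0.28 and -0.24 ± 0.18.

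At an unadjusted level, 0 of 10 genes in set B had a p under 0.05 and a lower level, against 0.816% of all genes, and 0 of 10 had every HPRT-targeted library below every control, against 0.178%. The other log2 fold changes were -0.38 for CDT1, -0.25 for MCM2, -0.22 for MCM3, -0.21 for MCM4, -0.09 for MCM7 and -0.04 for CDC6, with a median of -0.21 over the 10 genes, where 53.1% of all genes were lower. Without the 7 libraries, which leaves 2 HPRT-targeted libraries, all 10 genes were lower with a median of -0.36, and 3 of 10 had an unadjusted p under 0.05, against 1.85% of all genes. These were MCM2 at -0.64 ± 0.26, MCM7 at -0.40 ± 0.17 and CDC6 at -0.54 ± 0.26. Called at an adjusted p of 0.05 or less were 0 of 10 with all libraries and 0 of 10 without the 7, against 0% of all genes in both.

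Taking both sets in 1 fit with the set as a covariate, 9 of 10 genes were lower in the 8 HPRT-targeted libraries than in the 11 controls. MCM6 had a log2 fold change of -0.31 ± 0.12 (edgeR unadjusted p = 0.0164, adjusted p = 0.937), and MCM2 also had -0.31 ± 0.14 (0.0301 and 0.937). The loader CDT1 was at -0.37 ± 0.25, MCM4 at -0.27 ± 0.16, GMNN at -0.22 ± 0.13 and MCM3 at -0.18 ± 0.13. MCM7 was at -0.14 ± 0.11, CDC6 at -0.13 ± 0.16, MCM5 at -0.05 ± 0.12 and GINS2 at 0.01 ± 0.19. The median was -0.20, where 53.2% of all genes were lower. At an unadjusted p under 0.05, 2 of 10 were lower, against 1.39% of all 11836 genes, and 0 of 10 were called after adjustment, against 0%.

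Leaving out the 7 libraries brought all 10 genes below the control in both sets together, with a median of -0.34. This left 3 HPRT-targeted and 4 negative control libraries in set A, and 2 and 5 in set B. An unadjusted p under 0.05 was then reached by 9 of 10 genes, against 3.82% of all genes. MCM2 had -0.54 ± 0.12 (edgeR unadjusted p = 0.000188, adjusted p = 0.238), MCM7 had -0.32 ± 0.10 (0.00282 and 0.491), and MCM4 had -0.35 ± 0.10 (0.00195 and 0.408). GINS2, at 0.01 with all libraries, had -0.42 ± 0.15, and CDC6 had -0.40 ± 0.15, against -0.13 with all libraries. After adjustment 0 of 10 were called, against 0.00825% of all genes, so the change of direction of GINS2 and the larger values did not pass the test. For MCM2, the HPRT-targeted libraries left out held the highest values of their group in both sets. Its HPRT-targeted mean went from 42.4 to 39.9 CPM in set A and from 38.3 to 28.5 CPM in set B. Its control mean stayed at 55.2 CPM in set A and went from 45.7 to 44.1 CPM in set B. The 9 genes share libraries, so their count is not a count of independent results.

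**Figure D3:**
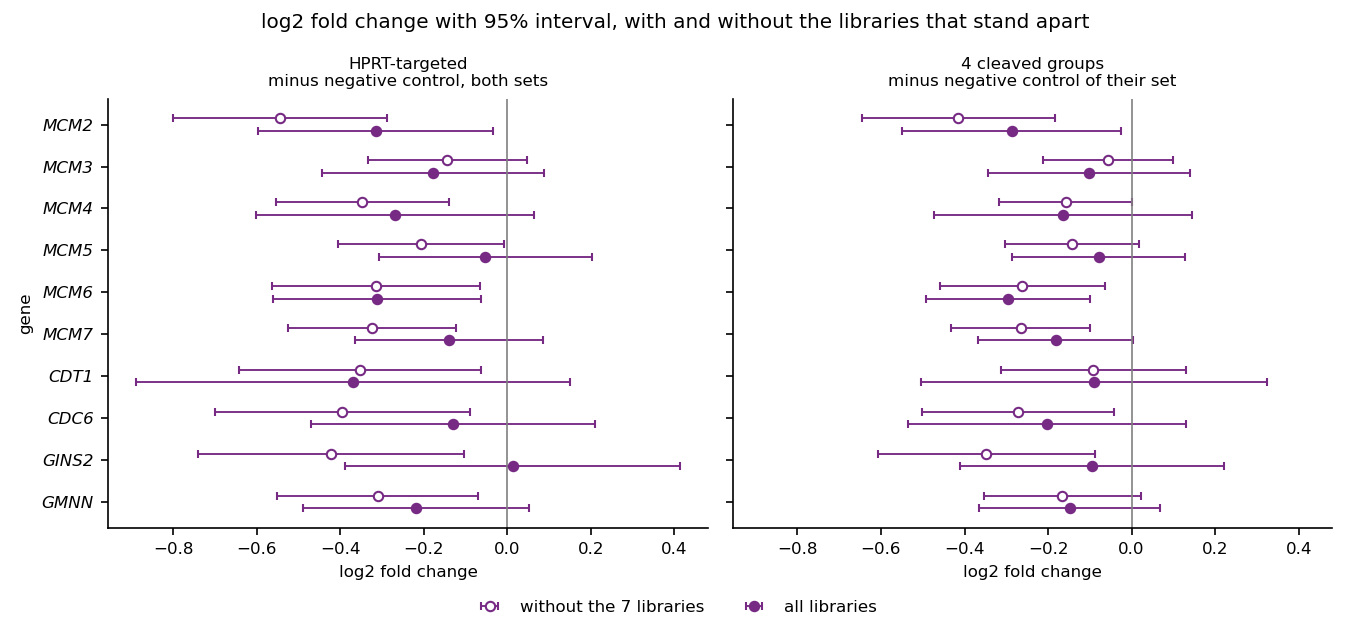
Points are edgeR log2 fold changes and bars their 95% intervals, for HPRT targeting in both sets (left) and for the 4 cleaved groups (right), without the 7 libraries (open) and with all libraries (filled). Without the 7 libraries, the intervals of all genes but MCM3 lie below 0 in the left panel.

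The size of the HPRT effect in set B minus that in set A was tested as an interaction. The difference was negative for 4 of 10 genes and positive for 6, from -0.20 to 0.47 on the log2 scale, with standard errors of 0.21 to 0.48. The smallest unadjusted p was 0.205 and 0 of 10 genes were called by edgeR, against 0% of all 12055 genes, of which 159 had an unadjusted p under 0.05, and DESeq2 called 2. Without the 7 libraries 9 of 10 differences were negative with a median of -0.12, GINS2 was at -0.14 against 0.47 with all libraries, and 0 of 10 were called, against 0.00809%. The interval of MCM2, for example, ran from -0.50 to 0.74, so it held differences larger than the HPRT effect itself.

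SMAD3 deletion asks whether the flanking guides, meant to remove a candidate enhancer, change these genes, and 3 helicase subunits were separate from the negative controls of set A in every library. MCM7 had 88.9, 72.7, 90.5 and 82.4 CPM in SMAD3 deletion libraries, against 114, 129, 94.99 and 115 CPM in negative controls. MCM5 had 61.02, 52.1, 54.3 and 41.6 CPM in SMAD3 deletion libraries, against 69.6, 65.7, 62.8 and 72.7 CPM in negative controls. MCM6 had 30.8, 24.5, 29.1 and 23.0 CPM after SMAD3 deletion, against 33.2, 35.2, 33.5 and 31.6 CPM in negative controls. In each of the 3 genes the 4 SMAD3 deletion libraries lay below the 4 controls, as in 2.62% of all genes. The log2 fold change was -0.44 ± 0.13 for MCM7 (edgeR unadjusted p = 0.00474, adjusted p = 0.702), -0.37 ± 0.13 for MCM5 (0.0108 and 0.702) and -0.31 ± 0.14 for MCM6 (0.043 and 0.730).

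The other subunits overlapped the controls. MCM4 had 105, 104, 113 and 55.2 CPM in SMAD3 deletion libraries, against 116, 111, 108 and 119.9 CPM in negative controls, a log2 fold change of -0.27 ± 0.17 that was -0.09 ± 0.09 without the libraries that stand apart. CDC6, the ATPase that helps to load the ring, had 29.7, 29.9, 34.7 and 9.89 CPM in SMAD3 deletion libraries, against 37.5, 37.6, 32.02 and 34.5 CPM in negative controls. Replicate 4, which stands apart, held the lowest value of both genes. The value of CDC6 was -0.43 ± 0.26 with all libraries and -0.17 ± 0.12 without those that stand apart.

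MCM2 was at -0.30 ± 0.15, MCM3 at -0.25 ± 0.15 and GINS2 at -0.41 ± 0.19, whereas the loader CDT1 was at -0.00 ± 0.15 and its inhibitor GMNN at 0.09 ± 0.16. The interval of CDT1 ran from -0.32 to 0.32 and that of GMNN from -0.24 to 0.42, so these data allow a change of either sign. MCM3 was at -0.12 ± 0.10 without the libraries that stand apart, and at -0.10 without SMAD3 deletion replicate 4 alone. In total 9 of 10 genes were lower with a median of -0.30, where 49.7% of all genes were lower. At an unadjusted p under 0.05, 3 of 10 were lower, against 2.74% of all genes, and 0 of 10 were called after adjustment, against 0%. Without the libraries that stand apart the median was -0.20 and 8 of 10 were lower, with 3 of 10 at an unadjusted p under 0.05, against 5.35% of all genes. These 3 were MCM7, MCM5 at -0.28 ± 0.11 and GINS2 at -0.49 ± 0.18. MCM6 was no longer among them, at -0.25 ± 0.13 (edgeR unadjusted p = 0.0613). MCM7 kept its value there, at -0.43 ± 0.12 (edgeR adjusted p = 0.209), and 0 of 10 were called, against 0.00864%.

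SMAD3 deletion and HPRT targeting in set A were set against the same 4 controls, so their values are not independent. Compared with each other directly, 6 of 10 genes were lower after SMAD3 deletion than after HPRT targeting. The 10 log2 fold changes had a median of -0.11 and ran from -0.25 for MCM7 to 0.33 for CDT1. The direction was not stable: without the libraries that stand apart 4 of 10 were lower and the median was 0.095, and without SMAD3 deletion replicate 4 alone it was 0.042. CDT1, at 17.1, 15.7, 15.3 and 11.2 CPM in SMAD3 deletion and 11.7, 11.98, 11.9 and 11.6 CPM in HPRT-targeted libraries, was at 0.33 ± 0.15 (edgeR unadjusted p = 0.043, adjusted p = 0.840). It was 1 of 10 genes higher at an unadjusted p under 0.05, against 2.96% of all genes. By adjusted p 0 of 10 were called, against 0% of all genes, and 0 of 10 without the libraries that stand apart, against 0.475%. In that case CDT1 was at 0.44 ± 0.16 (edgeR adjusted p = 0.209) and its inhibitor GMNN at 0.43 ± 0.12 (0.106), against 0.19 ± 0.16 for GMNN with all libraries.

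**Figure D4:**
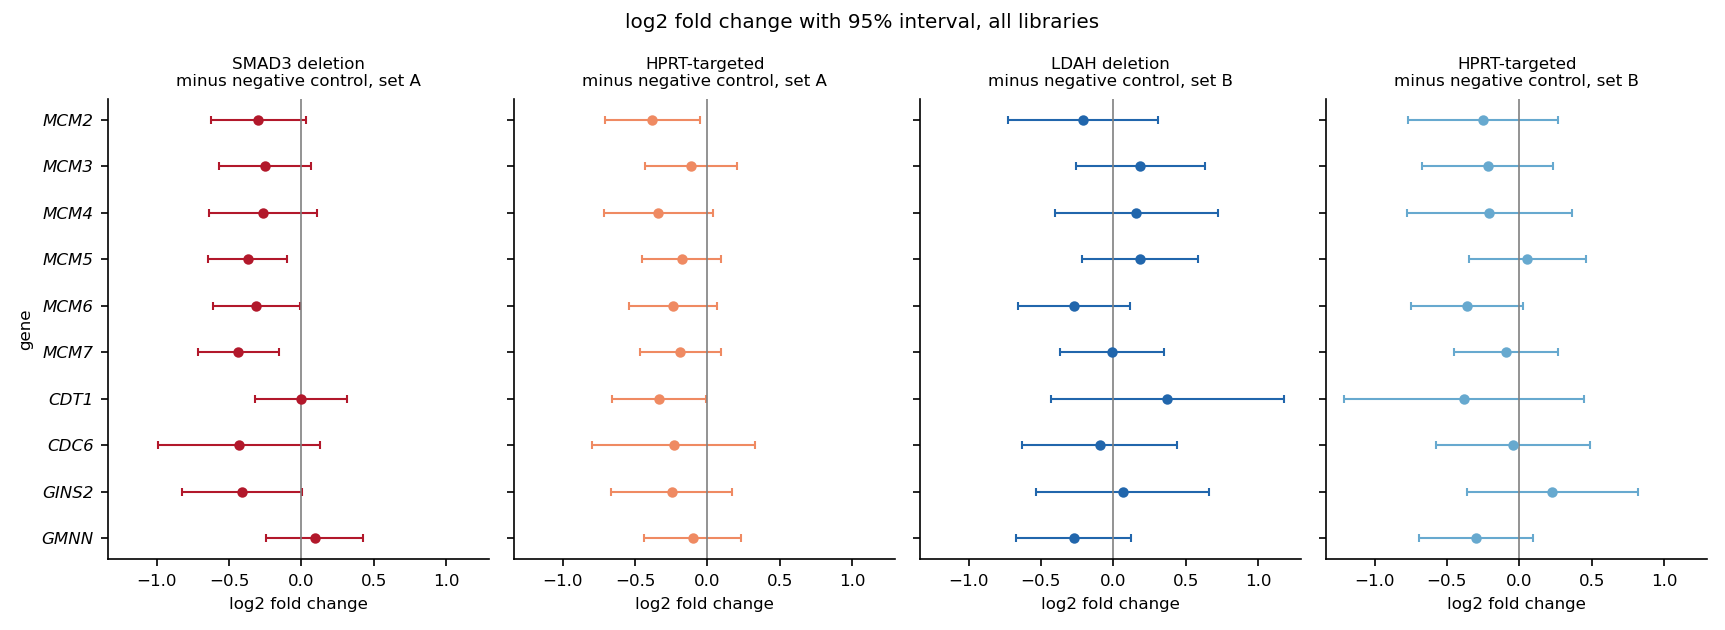
Points are edgeR log2 fold changes against the negative control of the same set and bars their 95% intervals, with all libraries, for SMAD3 deletion, HPRT targeting in set A, LDAH deletion and HPRT targeting in set B. Intervals that lie below 0 are those of MCM5, MCM6 and MCM7 in SMAD3 deletion and of MCM2 and CDT1 in HPRT targeting of set A.

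LDAH deletion gave no common direction. Of the 10 genes 5 were lower and 5 higher in LDAH deletion libraries than in the controls of set B, and the median of the 10 log2 fold changes was 0.03, where 48.3% of all genes were lower. CDT1 had 31.3, 32.4, 38.6 and 19.2 CPM in LDAH deletion libraries, against a lowest, median and highest value of 8.62, 25.7 and 37.3 CPM in the controls, and its log2 fold change was 0.37 ± 0.38. MCM4 had 173, 175, 183 and 95.6 CPM in LDAH deletion libraries, against 57.7, 140.2 and 219.9 CPM in the controls, with 0.16 ± 0.27. In both genes the groups overlapped, and replicate 4 of the deletion, which stands apart, was the lowest of its group.

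MCM3 and MCM5 were both at 0.19, with standard errors of 0.21 and 0.19, and GINS2 was at 0.06 ± 0.28. GMNN was at -0.28 ± 0.19, MCM6 at -0.27 ± 0.18, MCM2 at -0.21 ± 0.24, CDC6 at -0.10 ± 0.25 and MCM7 at -0.01 ± 0.17. The value of MCM2 depended on single libraries, at -0.40 without LDAH deletion replicate 4, -0.03 without replicate 3 and -0.36 ± 0.22 without the libraries that stand apart. In edgeR's test 0 of 10 genes had an unadjusted p under 0.05 and a lower level, against 3.33% of all 11769 genes, and 0 of 10 had every LDAH deletion library below every control, against 0.722%. By adjusted p 0 of 10 were called, against 0%. Without the libraries that stand apart 5 of 10 were lower with a median of -0.03, and 0 of 10 were called, against 1.74% of all genes. The LDAH deletion and HPRT-targeted libraries of set B were also set against the same controls.

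Between LDAH deletion and HPRT-targeted libraries of set B, 8 of 10 genes were higher after the deletion. Log2 fold changes ran from -0.16 for GINS2 to 0.76 for CDT1 around a median of 0.09, with standard errors of 0.19 to 0.44. Without the libraries that stand apart all 10 were higher with a median of 0.38, from 3 LDAH deletion and 2 HPRT-targeted libraries. By adjusted p 0 of 10 were called with all libraries, against 0% of all genes, and 0 of 10 without those that stand apart, against 0.634%.

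The effect of SMAD3 deletion minus that of LDAH deletion, each against the controls of its set, was negative for 9 of 10 genes, with a median of -0.42 on the log2 scale, where 51.1% of all genes were negative. MCM5 differed by -0.57 ± 0.24 (edgeR unadjusted p = 0.0231, adjusted p = 1) and MCM7 by -0.44 ± 0.21 (0.0476 and 1). These were 2 of 10 genes with an unadjusted p under 0.05 and a negative difference, against 0.946% of all genes. By adjusted p 0 of 10 were called, against 0%, and 0 of 10 without the libraries that stand apart, against 0.55%, where the median was -0.14. The deletion and the set cannot be told apart in this difference.

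Over the 4 groups whose guides cleave the genome, the mean difference from the negative control of the set was below 0 for all 10 genes. MCM6 was at -0.30 ± 0.10 (edgeR unadjusted p = 0.00465, adjusted p = 0.998), MCM2 at -0.29 ± 0.13 (0.0327 and 0.998) and MCM7 at -0.18 ± 0.09 (0.0547 and 0.998). The other 7 genes lay between -0.20 for CDC6 and -0.08 for MCM5, with CDT1 at -0.09 ± 0.20, GINS2 at -0.09 ± 0.15, GMNN at -0.15 ± 0.11, MCM4 at -0.16 ± 0.15 and MCM3 at -0.10 ± 0.12. The median was -0.16, where 53.2% of all genes were lower. At an unadjusted p under 0.05, 2 of 10 were lower, against 2.1% of all genes, and 0 of 10 were called after adjustment, against 0% of 12055 genes. In the 10 comparisons of a group that received a cleaving guide, 159 to 778 genes had an unadjusted p under 0.05 in edgeR, none passed its adjusted threshold, and DESeq2 called 0 to 17 genes, with 0 of the 10 among them.

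Without the 7 libraries, 6 of these 10 genes had an unadjusted p under 0.05, against 5.94% of all genes. MCM2 had -0.42 ± 0.11 (edgeR unadjusted p = 0.000957, adjusted p = 0.147), MCM7 had -0.26 ± 0.08, GINS2 -0.35 ± 0.13, CDC6 -0.27 ± 0.11 and MCM6 -0.26 ± 0.10. The last of the 6, MCM4, lay at the edge of that limit, at -0.16 ± 0.08 (edgeR unadjusted p = 0.0498). The median was -0.21, all 10 stayed below 0, and 0 of 10 were called, against 0.0243%. Each of the 4 differences uses the controls of its set, so the 4 are not independent of each other.

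Seen library by library, the median of the 10 genes relative to the mean of the negative controls of the set lay between -0.53 and -0.02 in SMAD3 deletion libraries and between -0.41 and -0.13 in HPRT-targeted libraries, against -0.13 to 0.07 in negative controls of set A. All 8 values of the cleaved groups of set A were below 0. In set B it lay between -0.18 and 0.16 in LDAH deletion libraries and between -0.46 and 0.06 in HPRT-targeted libraries, against -0.54 to 0.24 in negative controls. Negative control replicate 7 of set B, which stands apart, had all 10 genes below the mean of its group and the lowest median of all 27 libraries. The 10 genes of 1 library share its RNA and depth, so they are not replicates of a condition.

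**Figure D5:**
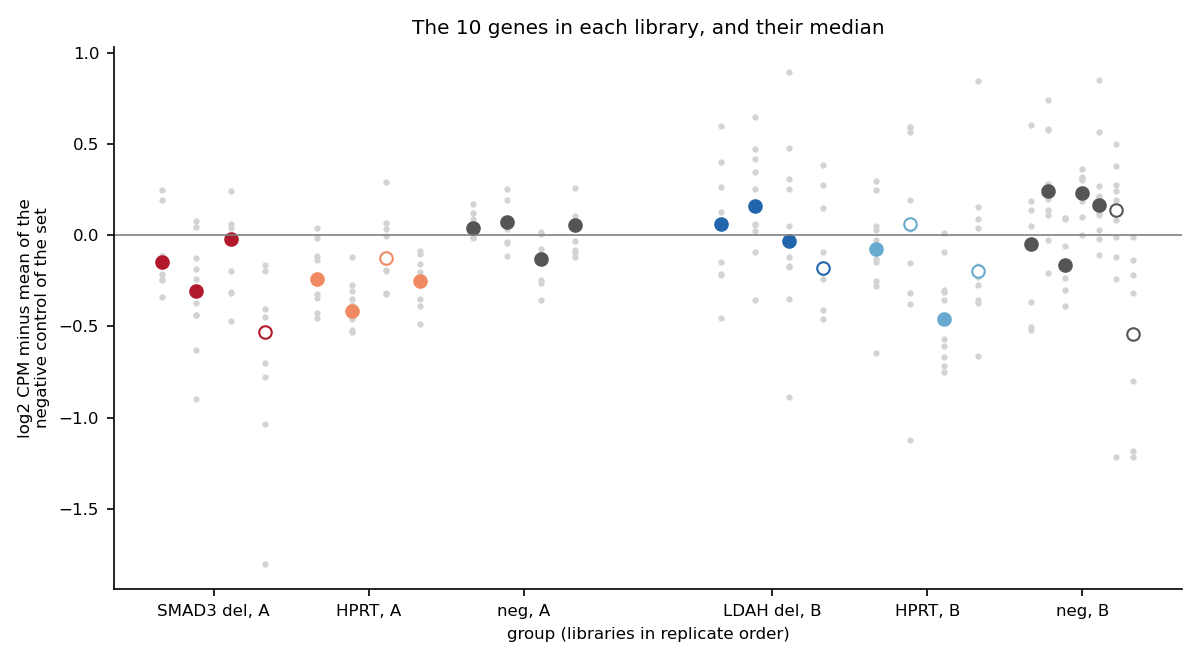
Each column is 1 library; grey points are the 10 genes and the large point their median, as log2 CPM minus the mean of the negative controls of the set (open where the library stands apart). The 8 medians of the cleaved groups of set A lie between -0.53 and -0.02, and those of set B range from -0.46 to 0.16 in the cleaved groups and from -0.54 to 0.24 in the controls.

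The genes did not vary equally within groups. The standard deviation of log2 CPM within groups was 0.55 for CDT1, 0.44 for CDC6, 0.41 for MCM4 and 0.40 for GINS2, and 0.21 for MCM6 and MCM7. For CDT1 it was 0.72 within groups of set B, against 0.16 within those of set A. The largest within groups of set A was 0.49, for CDC6. In set B the 5 libraries that stand apart had 8.62 to 19.2 CPM of CDT1, against 20.8 to 38.6 CPM in the other 10, and 57.7 to 118 CPM of MCM4, against 123 to 219.9 CPM in the other 10. Neither pair of ranges overlapped, whereas MCM2 had 44.7 to 54.6 CPM in those 5 libraries and 24.1 to 52.9 CPM in the other 10.

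In the same 5 libraries ribosomal protein genes took 14.9% to 17.3% of counts, against 9.35% to 11.3% in the other 10 of set B, and the summed endothelial markers were at 1147 to 1376 CPM, against 1816 to 2282 CPM in the other 10. In set A the 2 libraries that stand apart had 15.3% to 16.4% ribosomal protein counts, against 11.7% to 14.5% in the others. The part of these shifts in the levels of the 10 genes was not tested.

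The other genes of replication were described by lists of known members. Over the 4 cleaved groups, 5 of 6 tested genes of the origin recognition complex, 8 of 8 partners of the helicase, 12 of 13 origin firing factors and 22 of 26 replication fork proteins were lower than the control. Lower were also 8 of 12 genes for turnover of licensing factors and 14 of 24 tested genes, of 27 listed, of the RB and E2F system with its inhibitors. Of all genes, 53.2% were lower in this comparison. In edgeR's test with Benjamini-Hochberg adjustment, 0 genes of the 6 lists passed in either direction, in this comparison and in each of the other 9 in which a guide that cleaves was tested. The share of all genes that passed was 0% in each of these comparisons too. The medians were -0.03, -0.24, -0.25, -0.11, -0.06 and -0.06 in the order named, against -0.01 over all genes.

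ORC1, the ATPase of the origin recognition complex that is made anew in G1, had a log2 fold change of -0.53 ± 0.25 over the 4 cleaved groups (edgeR unadjusted p = 0.0424, adjusted p = 0.998). CDC7, the kinase that phosphorylates the loaded MCM ring, had -0.53 ± 0.18 (0.00839 and 0.998), and GINS3, a partner of GINS2 in its complex, had -0.27 ± 0.13 (0.0449 and 0.998). The fork protection gene TIMELESS was at -0.28 ± 0.11 and the flap endonuclease gene FEN1 at -0.39 ± 0.17. MCM10, which helps to activate the helicase, was at -0.31 ± 0.19, and MCMBP, which binds MCM subunits, at -0.22 ± 0.13. TICRR, which recruits firing factors, was at -0.78 ± 0.44, and DTL, which marks CDT1 for destruction, at -0.25 ± 0.15. ORC6, another subunit of the origin complex, was at -0.33 ± 0.16, ORC4 at 0.17 ± 0.15, the firing factor gene DONSON at -0.22 ± 0.12 and POLE, the catalytic subunit of polymerase epsilon, at -0.56 ± 0.29. CCNF and CKS1B, of the list for turnover of licensing factors, were at -0.21 ± 0.18 and -0.14 ± 0.14. All of these missed the threshold, with adjusted p-values of 0.998.

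CDKN1A, which encodes the p21 inhibitor of cyclin-dependent kinases, was higher in the cleaved groups, at 0.51 ± 0.14 (edgeR unadjusted p = 0.000965, adjusted p = 0.997). In the single comparisons it was at 0.45 ± 0.19 in SMAD3 deletion, 0.60 ± 0.19 in HPRT targeting of set A, 0.54 ± 0.22 in LDAH deletion and 0.44 ± 0.23 in HPRT targeting of set B. In LDAH deletion, where the median of the 10 genes was 0.03, CDKN1A was also positive. Of the E2F genes, E2F4 was at -0.30 ± 0.12 and E2F5 at -0.78 ± 0.36, the second at a mean level of 2.90 CPM over set B and 2.36 CPM over set A. The part of CDKN1A in the levels of the helicase genes was not tested.

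Among the genes whose pattern over the 27 libraries was most like the median of the 10 were TUBB, PBK, DKC1 and LLPH. Likeness was the root mean square difference in log2 CPM, both centred on the negative controls of the set, among 8468 genes with a mean of at least 10 CPM. It was 0.17 for TUBB, a beta tubulin, 0.17 for PBK, a kinase of mitotic cells, 0.17 for DKC1, a pseudouridine synthase, and 0.18 for LLPH, where the median of the 10 itself had a root mean square of 0.24. TUBB has near-identical copies elsewhere in the genome, so its counts are uncertain. Among the 10 genes MCM7 came nearest to the median, at 0.14, and CDT1 was farthest, at 0.51. Over the 8468 genes the median difference was 0.44, so CDT1 was less like the 10 than a typical gene. Each of the 10 is part of the median it is set against, so its nearness is partly given.

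The negative controls of the 2 sets, which received the same guide, were also compared. In negative control libraries of set B minus those of set A, edgeR called 1157 of 12055 genes, or 9.6%, and 1 of the 10 genes. GMNN was higher in set B, at 65.3, 83.4 and 97.9 CPM as lowest, median and highest in set B, against 57.6, 53.9, 46.9 and 47.0 CPM in set A. All 7 values of set B lay above the 4 of set A, as for 8.3% of all genes, and the log2 fold change was 0.54 ± 0.17 (edgeR adjusted p = 0.0401). The fit took 1 estimate of the spread for both sets, although set B varied more. This call of GMNN was lost in 7 of 27 fits that left out 1 library each. Without negative control replicates 1 to 4 of set A the adjusted p-values were 0.0635, 0.0861, 0.129 and 0.139, without HPRT-targeted replicate 1 of set A 0.0507, and without negative control replicates 2 and 6 of set B 0.0513 and 0.064.

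CDT1 was at 0.54 ± 0.32 between the sets, MCM6 at 0.35 ± 0.15 and MCM4 at 0.19 ± 0.24, whereas MCM2 was at -0.40 ± 0.20, GINS2 at -0.40 ± 0.24 and MCM5 at -0.34 ± 0.16. MCM7 was at -0.11 ± 0.14, and MCM3 and CDC6 were both at -0.03, with standard errors of 0.18 and 0.25. The median was -0.03, with 6 of 10 lower, where 48.3% of all genes were lower. Without the 7 libraries 4 of the 10 genes were called, against 28.2% of all genes. CDT1 then had 0.87 ± 0.16 (edgeR adjusted p = 0.000145), GMNN 0.55 ± 0.14 (0.00279), MCM4 0.41 ± 0.11 (0.00815) and MCM2 -0.44 ± 0.16 (0.0454). The share of the 10 called is to be read beside that of all genes, and the labels do not say what else differed between the experiment sets. Of the replication lists, edgeR called 2 of 13 firing factors, 3 of 12 genes for turnover of licensing factors, 1 of 26 fork proteins and 2 of 24 genes of the RB and E2F system. It called 0 of 6 genes of the origin complex and 0 of 8 helicase partners, where 9.6% of all genes were called, so these counts are no result about replication genes. Higher were DBF4, the partner of the CDC7 kinase, at 0.99 ± 0.18 (adjusted p = 0.000531), the cyclin gene CCNE2 at 1.13 ± 0.27 and the pocket protein gene RBL2 at 0.99 ± 0.23. Lower were FEN1 at -1.15 ± 0.26 and E2F4 at -0.96 ± 0.18, with CKS1B, CUL4A and DDB1 between -0.69 and -0.50.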

How the data were processed

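The deposited table holds raw counts per gene for 27 QuantSeq 3' libraries, read by 86 cycles, which the authors made on hg38 per the submitters' processing notes, which also name edgeR 3.24.3. Not given in the sources used here are the aligner, the counter and the use of strand. No library columns were left unused (0 of them). Libraries were grouped by the labels' treatment and experiment set, and in the 51 pairs of libraries within groups the counts differed by more than sampling noise (chi-square over its degrees of freedom 3.03 to 78.9), so no library was counted as a copy.

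From the counts, the quasi-likelihood test of edgeR 4.0.16 in R 4.3.3 (TMM scaling, filterByExpr, Benjamini-Hochberg over all genes tested, threshold 0.05) was fitted within a set, or over libraries of both sets with the set in the model. The common dispersion, the spread of counts beyond sampling noise, was 0.043 in the fit of set A and 0.195 in that of set B. Fits over both sets took 1 estimate for both, at 0.118 or 0.125. Their errors and p-values therefore do not reflect the difference in spread between the sets. Errors of log2 fold changes are standard errors from the test statistic, and intervals are 95%. Profiles used log2 CPM with a prior count of 2. Alternatives used DESeq2 1.42.0, limma 3.58.1, other scaling and filters, and leaving out libraries. A library stands apart where its median correlation with its set lies over 3 scaled median absolute deviations below the set's median. Scripts were tested on simulated data.

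The 10 genes, the lists and the rule for libraries that stand apart were chosen with earlier results of these data known. Named genes were all 10, the 3 of each list with the lowest p over the 4 cleaved groups, and the 5 most like the median profile, of which 1 is not reported here. In the 4 comparisons between deletion and HPRT groups or between effects, the 10 genes are summarised and those with an unadjusted p under 0.05 named, a departure from giving all 10. Genes of the lists called between the negative controls were named after their values were seen. Intervals of log2 fold changes include the spread between libraries, and the detection floors cover counting error only. Promoters and their start sites came from the RefSeq table and gene positions from a GENCODE annotation, both on GRCh38. The HPRT guide's effect on HPRT1, the cut and the guide itself cannot be told apart.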

Additional observations from a re-analysis of the deposited data

Results flagged for a closer look

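In 3 of the 66 groups of 4 or 7 libraries checked for a value far from its group, 1 library stood far from the others, where chance gives about 1 in 20 groups. MCM4 had 55.2 CPM in SMAD3 deletion replicate 4, against 104 CPM in the nearest library of its group. MCM4 also had 95.6 CPM in LDAH deletion replicate 4, against 173 CPM in the nearest. Both libraries are among the 7 that stand apart. MCM3 had 109 CPM in HPRT-targeted replicate 1 of set B, against 73.6 CPM in the nearest, and that library does not stand apart.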

How the results depend on the processing

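For genes given singly, 1739 of 1815 alternatives kept direction and side of the threshold and 61 changed sign. In the comparisons where the genes are only summarised, 931 of 985 did and 54 changed sign. No reversal concerned a called value. In the 10 comparisons of a cleaved group, 0 of the 10 genes were called under each alternative run. Their smallest edgeR adjusted p with all libraries was 0.702 there, so keeping the side of the threshold was close to given. Most alternatives left out 1 library and shared nearly all data with the main fit.

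The number of genes called between the negative controls was 5 with limma voom quality weights and 4 without the libraries that stand apart, and ranged from 0 to 2 when 1 library was left out. The median of LDAH deletion against HPRT targeting in set B was 0.35 with the weights and 0.38 without the libraries that stand apart. Without those libraries the median was -0.12 for the HPRT effect of set B minus set A, and -0.14 for the SMAD3 minus the LDAH deletion effect. Medians near 0 also changed sign without them: 0.095 for SMAD3 deletion against HPRT targeting, -0.031 for LDAH deletion and 0.081 between the negative controls. The SD of the median between single libraries of a group, pooled over groups, was 0.21. By group it ran from 0.094 in negative controls of set A to 0.28 in negative controls of set B. This SD describes single libraries and is not the error of a median log2 fold change between groups. No error of those medians is given here, so whether they exceed the spread between libraries was not tested.

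Genes given singly changed sign as follows, and the cause was not tested. In SMAD3 deletion CDT1 was at 0.0012 with DESeq2, 0.083 with the weights and 0.10 without the libraries that stand apart. With the weights and without those libraries, HPRT targeting in set B gave MCM5 -0.17 and -0.24 and GINS2 -0.35 and -0.49, and GINS2 in both sets -0.39 and -0.42. In LDAH deletion without them MCM7 was at 0.0028 and GINS2 at -0.064. Between the negative controls MCM3 was at 0.070 with the weights, 0.0058 with a mean of at least 10 CPM and 0.13 without those libraries, and CDC6 at 0.0032 and 0.034 under the last pair.

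Leaving out 1 library gave ranges across 0 in LDAH deletion for MCM7 (-0.10 to 0.053), CDC6 (-0.18 to 0.016) and GINS2 (-0.040 to 0.18). In HPRT targeting of set B they were -0.16 to 0.16 for MCM5, -0.20 to 0.039 for MCM7, -0.31 to 0.12 for CDC6 and -0.035 to 0.46 for GINS2. They were -0.15 to 0.11 for GINS2 in both sets, -0.077 to 0.12 for CDT1 in SMAD3 deletion, and -0.064 to 0.076 for MCM3 and -0.11 to 0.083 for CDC6 between the negative controls.

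No paired analysis was made because the labels give no replicate numbers that tie libraries of different groups together. Library numbers in the sample titles of set A alternate between HPRT-targeted and negative control libraries, from 26 to 33. Those of SMAD3 deletion run from 10 to 13, apart from their controls. What these numbers stand for is not given, and a part of handling in that order was not tested. A search for protein motifs was not run, as no protein table was at hand. At depths of 3.43 to 7.75 M counts the genes were far above the detection floor, and the spread between libraries, larger in set B, set the errors.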
